A study of Macaca mulatta with 4 samples.

Results

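The myelin structural genes MBP, MOBP, CNP, MAG, MOG, OPALIN and MAL were followed through the nuclei of the fetal rhesus macaque cerebellum. They were taken by symbol, and they are 7 of the 30807 genes of the deposited matrices. The study compared the cerebellum of 2 control fetuses with that of 2 fetuses whose amniotic cavity had been injected with bacterial lipopolysaccharide (LPS), a model of chorioamnionitis. Each fetus gave 1 library of single-nucleus RNA. The Control group had no intervention and held a female and a male, both at 130 days of gestation. The LPS group received 1 mg of LPS 5 days before delivery and held a female at 131 days and a male at 133 days. Nuclei came from flash-frozen cerebellar hemispheres, with part of the vermis according to the methods, and were captured in droplets with a 3′ kit of 10x Genomics. The libraries are called control female, control male, LPS female and LPS male below. Group, age and individual fetus cannot be told apart in this design, since both LPS fetuses were older than both controls.

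Oligodendrocytes form the myelin of the central nervous system. They arise from dividing precursors (OPCs), which leave the cell cycle, pass through a premyelinating stage and then wrap axons. MBP is the basic protein that brings the cytoplasmic faces of the membrane together in compact myelin, and MOBP is a smaller basic protein of the same layer. CNP, a cyclic nucleotide phosphodiesterase, lies in the cytoplasm-filled channels that compaction leaves open. MAG is a sialic acid-binding adhesion protein of the innermost membrane, which faces the axon, and MOG is an immunoglobulin-like protein of the outermost surface. OPALIN is a sialylated membrane glycoprotein of oligodendrocytes, and MAL is a proteolipid of membrane rafts that takes part in sorting membrane to the sheath. In mammals the MBP locus also holds a longer transcription unit, Golli-MBP, which has been described in neurons and immune cells. The counts used here are per gene, with introns included, and do not separate the units of a locus.

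The libraries held between 34282015 and 61665690 unique molecular identifiers (UMIs), and 32565 barcodes were kept as nuclei. Each had 500 genes or more and no more than 5% of its UMIs on CYTB, the only mitochondrial gene used. Their median UMI number ran from 1882 in control male to 4508 in control female. LPS male stood apart. Only 38.7% of its UMIs lay in nuclei, against 58.7 to 73.9% in the others, and an unnamed cluster of low UMI number held 24.5% of its barcodes, against 0.754 to 3.99%. The oligodendrocyte class held 469 nuclei, 125 in control female, 96 in control male, 88 in LPS female and 160 in LPS male. All 13 of its measured markers were raised in it. The 7 genes were kept out of the clustering and of the marker lists, so that their levels did not name the class or its stages. Within the class, clusters gave 172 OPCs, 107 premyelinating oligodendrocytes, 77 mature oligodendrocytes and 28 proliferating nuclei. A cluster of 85 nuclei with raised granule cell markers, 26 of them called doublets, was left unnamed. All 11 measured markers of the mature stage and all 8 of the premyelinating stage were highest in their own stage, as were 6 of the 8 OPC markers. The class and stages were named from these same lists, so the counts of markers describe them and do not test the names. The smaller cluster named premyelinating (25 nuclei) raised 6 of its 8 markers. Its mean log2 fold difference was 1.13 for the premyelinating list and 0.564 for the mature list. Below, the UMIs of a gene were summed over the nuclei of a stage or class in a library and given on the counts-per-million scale (CPM) of all UMIs of the same nuclei. Each gene is compared only with itself between groups of nuclei, since the lengths of the transcripts and introns counted were not used here.

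Mature oligodendrocytes had the highest level of all 7 genes when the libraries were summed, against OPCs, premyelinating and proliferating nuclei. The stages are clusters of the same nuclei, so these levels are a description and carry no test. MBP reached 15360 CPM in control female, 12230 in control male, 16580 in LPS female and 21650 in LPS male in mature nuclei. In premyelinating nuclei MBP had 7870, 7479, 6472 and 14190 CPM in the same order, which was 51.2, 61.2, 39.0 and 65.5% of the mature level of each library. The stages were thus in the same order in every library, and LPS male was the highest of the libraries in both. MOBP, the other basic protein, had 2562, 1797, 2855 and 2296 CPM in mature nuclei and 623.4, 69.7, 254.4 and 528.1 CPM in premyelinating nuclei. Its premyelinating level was 3.88 to 24.3% of the mature one, a smaller share than that of MBP in each library. CNP was sparse, with 3, 1, 5 and 17 UMIs in the mature nuclei of the libraries, or 28.4, 32.1, 72.1 and 79.5 CPM. Its premyelinating level was 40.7, 79.7, 35.5 and 68.9 CPM, above the mature level in both controls and below it in both LPS libraries. At so few UMIs CNP gave no order between these stages.

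Among the surface proteins, MAG in the layer facing the axon had 1068, 577.6, 1341 and 846.3 CPM in mature nuclei, and its premyelinating level ran from 21.6% of this in LPS female to 98.6% in LPS male. MOG on the outer surface had 1021, 1091, 1154 and 930.5 CPM in mature nuclei, and its premyelinating level was 25.6 to 32.3% of it, the narrowest range of the genes with UMIs in both stages. OPALIN had 397, 353, 475.8 and 332 CPM in mature nuclei. Its premyelinating share was 18.2 and 14.1% in the controls and 2.49 and 2.31% in the LPS libraries, from 16, 5, 2 and 1 UMIs in 5, 1, 1 and 1 nuclei. MAL had 198.5, 288.8, 245.1 and 229.1 CPM in mature nuclei. No MAL UMI was found in the 107 premyelinating nuclei, which allows a level of up to 4.83 CPM by the limit of 3 counts, nor in OPCs or proliferating nuclei.

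A finer clustering of the class split the premyelinating nuclei into 3 clusters, and the genes did not appear in the same one. These 3 clusters were put in order by the mean level of the mature stage markers, in which none of the 7 genes takes part. Proliferating nuclei and OPCs were placed before them by their stage names and not by this level. The first premyelinating cluster (47 nuclei, led by GPR17, a receptor of cells leaving the precursor state, and BMP6) had 387 CPM of MBP, 104 of MAG and 75.5 of MOG over all libraries. MBP there was 69.8, 370, 140 and 1123 CPM in control female, control male, LPS female and LPS male, respectively. The second (42 nuclei, led by BMPER and FRMD4A) had 5917, 7430, 5624 and 8930 CPM of MBP, and every nucleus of it held MBP UMIs. Not 1 UMI of MOBP, OPALIN or MAL was found in either cluster, which in the second leaves exact 95% upper limits of 14.3 CPM over all libraries. The third (24 nuclei, led by MKX and RRAS2) held MOBP and OPALIN, of which earlier clusters had shown only 2 MOBP UMIs in OPCs. MOBP had 2087, 267.8, 1018 and 1827 CPM there, and OPALIN 242, 191, 47.3 and 26.5 CPM. MBP stood at 18380, 15610, 15740 and 35740 CPM in this cluster, above the mature level in 3 of the 4 libraries, LPS female being the exception. MAG, at 1240, 1339, 686 and 1853 CPM, was above its mature level in the same 3 libraries. CNP, at 90.8, 114.8, 94.7 and 105.9 CPM from 3 to 6 UMIs each, was above it in all 4. MAL was at 0 in all 3 clusters and appeared in mature nuclei alone among the named clusters. The third cluster rests on 4 to 7 nuclei a library, and the order of the clusters is one of marker levels and stage names and not of time.

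**Figure D1:**
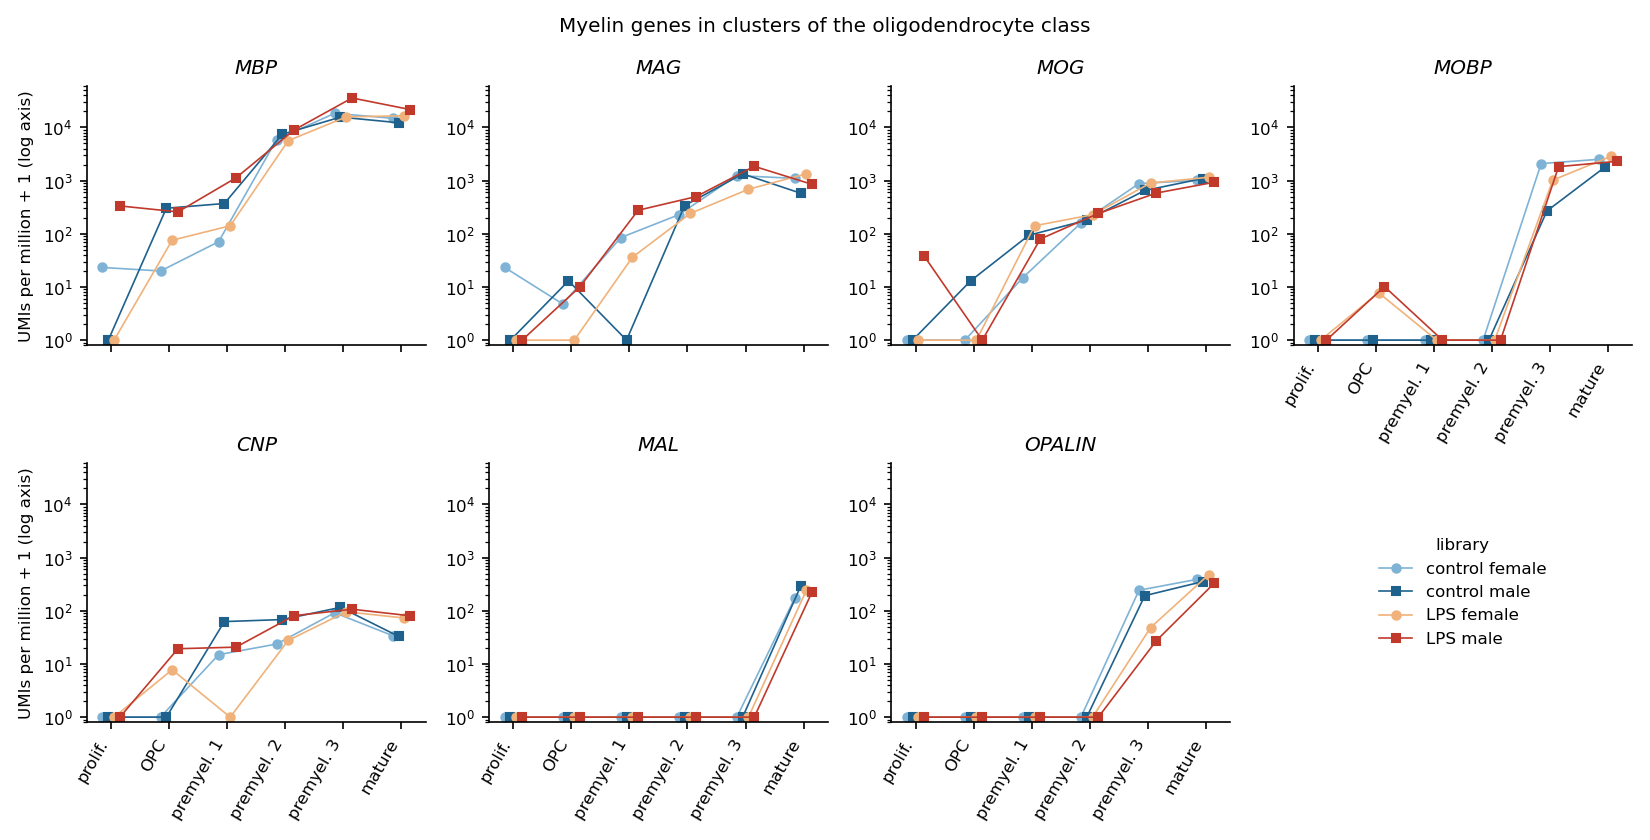
CPM plus 1 on a log axis for each myelin gene, by cluster of the oligodendrocyte class at the finer resolution, from proliferating nuclei to mature oligodendrocytes. Each point is a library (circles female, squares male, blue Control, orange and red LPS), and lines only join points of a library. Summed over libraries, the OPC cluster held 69 UMIs of MBP and 1 to 3 UMIs each of MAG, MOG, CNP and MOBP. MBP, MAG and MOG were higher in this sum from the first premyelinating cluster on, though MAG was at 0 there in control male, MOBP and OPALIN appeared in the third, and MAL in the mature cluster alone.

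In single nuclei of the coarser stages, libraries summed, each gene was still found most often in mature nuclei after depth was made equal. The finer clusters were not compared at equal depth. All 77 mature nuclei held MBP UMIs, between 10 and 313 each, with a median of 6 of the 7 genes per nucleus. The median premyelinating nucleus held 3 of them and the median OPC none. After thinning to 1000 UMIs per nucleus, MBP was found in 100% of mature nuclei, 70.1% of premyelinating nuclei and 6.02% of OPCs, with 6 OPCs too shallow to be thinned (100, 79.4 and 7.56% before thinning). Purkinje cells, neurons that make no myelin, gave 0.800% after thinning and 15.2% before, at a median of 9222 UMIs against 5032 in mature nuclei. MOBP was found in 89.6% of thinned mature nuclei and 10.3% of thinned premyelinating nuclei. CNP was found in 10.4 and 6.54%, but the order was reversed in control female (0 and 7.14%) and in LPS female (0 and 13.6%). MAL was found in 28.6% of mature nuclei after thinning and 55.8% before. Thinning can only lower detection, so this fall does not tell missed MAL from absent MAL. A mature nucleus without a MAL UMI is not shown to lack the transcript.

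OPCs held few UMIs of these genes, and most of them came from 1 nucleus per library in the 172 OPCs of the coarser clustering. MBP in OPCs was 617 CPM in control female, 291 in control male, 72.2 in LPS female and 239 in LPS male, from 175, 25, 11 and 28 UMIs. The nucleus with the most MBP held 170, 25, 11 and 24 of these UMIs, and the one in control male was called a doublet. Without it the level was 18.6, 0, 0 and 34.5 CPM. The level of MBP in OPCs was thus largely that of 4 nuclei. The one in control female held 243 of the 249 UMIs of the 7 genes in the OPCs of that library, and it was not an OPC under the finer clustering. There the OPC cluster of control female kept 5 MBP UMIs, and its mature cluster went from 12 nuclei with 1625 MBP UMIs to 13 with 1795. The OPCs of all libraries held 69 MBP UMIs in the finer clustering, as in the plot by stage, against 239 here.

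Of the 60337 UMIs of the 7 genes in the libraries, 56.0% lay in nuclei. Oligodendrocytes, 469 of 32565 nuclei, held 53.4% of the UMIs in nuclei. The share of a gene's nuclear UMIs that lay in oligodendrocytes was 84.6% for MOBP, 77.8% for MOG, 77.7% for MAL, 75.6% for OPALIN and 73.3% for MAG. It was 50.2% for MBP, with 42.9, 34.6, 40.3 and 65.4% in control female, control male, LPS female and LPS male. CNP, at 25.8%, had more UMIs in granule nuclei (46.5%) than in oligodendrocytes in this sum over libraries. MBP did so in control male, with 1373 UMIs in granule nuclei against 1174, and in LPS female the numbers were close, 2448 against 2473.

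MBP outside oligodendrocytes was therefore set beside the RNA of empty droplets, which are barcodes with at most 100 UMIs. Empty droplets had 250, 180, 198 and 570 CPM of MBP in control female, control male, LPS female and LPS male. Among the UMIs of the 7 genes in them, MBP took 79.4, 85.7, 81.5 and 85.0%. In granule nuclei MBP had 110, 115, 123.5 and 130.5 CPM, and took 94.8, 95.7, 95.7 and 89.6% of the UMIs of the 7 genes, above the share in empty droplets in every library. The free share of granule nuclei, estimated from markers of other classes, would bring 31.8, 28.1, 23.4 and 116 CPM of MBP. The measured level was well above this in 3 libraries and close to it in LPS male. In LPS male the value depends on which droplets are called empty, since the barcodes ranked after 3 times the number of nuclei had 332 CPM of MBP in place of 570. MAG, MOG and OPALIN were at most 2.77 CPM in granule nuclei in every library, and MOBP reached 6.61 CPM in LPS male. CNP had 1.29, 2.34, 1.61 and 2.06 CPM, above the 0.521, 0.749, 0.189 and 1.06 CPM that the free share would bring. MAG was below it in all 4 libraries, with 2.19, 0.501, 1.87 and 2.56 CPM against 3.56, 1.69, 2.74 and 5.43 CPM. MOG, MOBP and OPALIN were below it in 3 of 4 libraries each, and MAL had at most 0.427 CPM. Free RNA would set a lower limit for a nucleus, so the estimated free share appears too high for these genes, MAG above all. The free level of MBP given above may be too high in the same way, also in LPS male, which was not tested.

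The MBP of granule nuclei was uneven between their clusters. Cluster 4 (2894 nuclei, with 972 CPM of BOC, 1195 of HES6 and 1005 of ROR1, genes of granule cell precursors) had 461, 538, 485 and 533 CPM of MBP and held 44.2% of the MBP UMIs of the class. MBP took 95.6 to 99.5% of the 7 genes there, with 81 UMIs of the other 6 genes beside 3961 of MBP. The cell-cycle cluster 8 (1547 nuclei) was named proliferating glia by its markers and is not counted in the levels of granule nuclei. The same precursor genes were also found in it, at 743 to 919 CPM, and it had 299, 347, 312 and 370 CPM of MBP. Clusters 1 and 11, led by EBF3, had 142 to 266 and 145 to 221 CPM. In the 4 clusters led by TRPC7, CHRM3, PTK2B and EDIL3, MBP was 16.2 to 107 CPM, highest in LPS male in each, and its share of the 7 genes was 74.2 to 89.1%. MBP was higher in cluster 4 than in each of these 4 clusters in every library. Without called doublets granule nuclei kept 109 to 127 CPM.

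Microglia, the resident macrophages of the brain, had the highest MBP of the classes other than oligodendrocytes. Their 263 nuclei had 638, 769, 606 and 608 CPM in control female, control male, LPS female and LPS male. Empty droplets had 250, 180, 198 and 570 CPM of MBP in the same order, and the free share of microglia was not estimated. In microglia both LPS libraries lay below both controls, by less than the controls differed from each other, and this was not tested. MBP UMIs were found in 81.0% of microglia, and in 47.4% after thinning, where 12 nuclei were too shallow. After thinning, granule nuclei gave 10.6%, astrocytes 5.41% and Purkinje cells 0.800%. The median was 3299 UMIs in microglia. MAG had 24.2, 81.2, 22.6 and 32.6 CPM in microglia, from 37 UMIs, beside 28.1, 10.8, 23.3 and 26.8 CPM in empty droplets. Empty droplets hold free RNA alone, so their level is not the one that free RNA would bring to a nucleus. In granule nuclei the free share would bring 1.69 to 5.43 CPM of MAG. MAG in microglia of control male was 67.0 CPM without called doublets, from 9 of its 17 UMIs. MOBP and MOG had 2 UMIs each and MAL none. MBP took 89.4 to 95.3% of the 7 genes in microglia, above its share in the empty droplets of each library. Purkinje cells had 12.9, 5.09, 19.5 and 46.1 CPM. Bergmann glia had 25.8 to 110 CPM, and 12.5 to 82.0 CPM without called doublets, and astrocytes had 37.4 to 142 CPM. Unipolar brush cells (76 nuclei) had 0 to 33.0 CPM and choroid or ependymal cells (39 nuclei) 0 in all libraries but LPS male, from 14 and 4 MBP UMIs. The transcription units of the MBP locus are not separated in any of these levels.

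**Figure D2:**
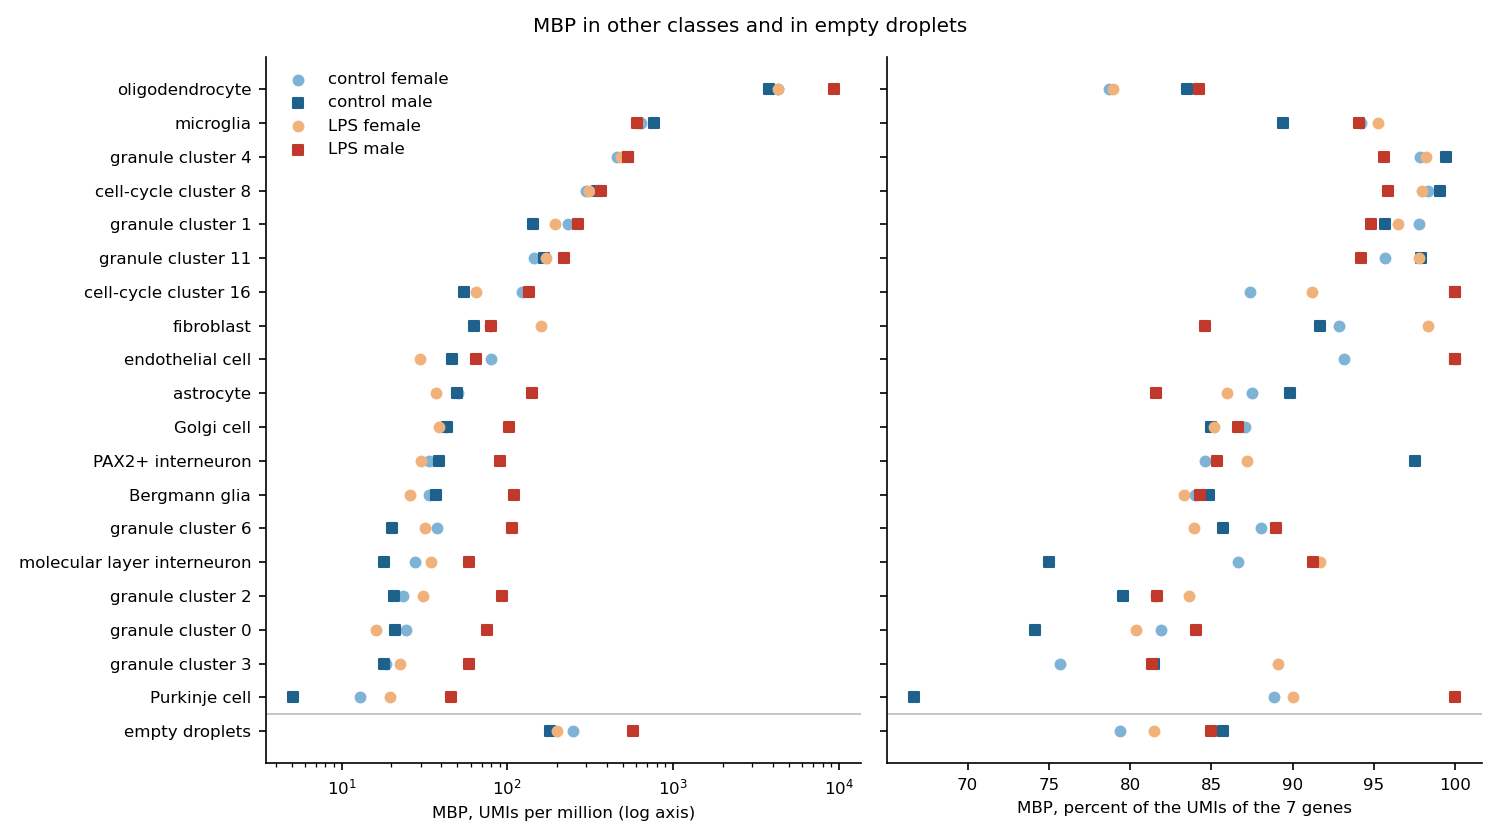
MBP in CPM (left, log axis) and as percent of the UMIs of the 7 myelin genes (right), for classes of nuclei, for the granule and cell-cycle clusters, and for empty droplets under the grey line. Each point is a library (circles female, squares male, blue Control, orange and red LPS). Unipolar brush cells and choroid or ependymal cells, with few nuclei, are left out. Microglia, granule cluster 4 and cell-cycle cluster 8 lay above the other classes, oligodendrocytes excepted, on the left. On the right they lay at 89.4 to 99.5%, which did not set them apart. Endothelial cells had 93.2 to 100% there, and granule clusters 1 and 11 had 94.2 to 97.9%.

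Whether LPS changed the genes was asked first in the whole oligodendrocyte class, with the fetus as replicate. In the quasi-likelihood test of edgeR, at an adjusted p under 0.1 and a log2 fold change over 0.25, none of the 7 genes was called, and none of 8080 genes was (0%). At an unadjusted p of 0.05, 76 of the 8080 genes passed, and DESeq2 called 1 gene, SPOCK1. MBP in the class was 4303 CPM in control female, 3775 in control male, 4295 in LPS female and 9381 in LPS male. LPS male was apart from the other 3 libraries, and LPS female lay below control female, so that the groups overlapped. The log2 fold change was 0.72 ± 0.65 (SE, n = 2 a group; edgeR adjusted p = 0.9999). MOBP had 519, 203, 443 and 776 CPM and a log2 fold change of 0.68 ± 0.52, again with overlap of the groups. CNP had 21.2, 28.9, 24.3 and 37.6 CPM and a log2 fold change of 0.33 ± 0.53.

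Among the surface and membrane proteins, MOG and MAL were the only ones whose groups did not overlap. MOG had 231 and 209 CPM in the controls and 292 and 344 CPM in the LPS libraries, with a log2 fold change of 0.51 ± 0.35 (SE; edgeR adjusted p = 0.9999). MAL had 24.7 and 28.9 CPM against 36.5 and 71.5 CPM, from 21, 9, 21 and 57 UMIs, and a log2 fold change of 1.00 ± 0.52. MAG had 296, 225, 278 and 420 CPM with 0.39 ± 0.38, and OPALIN 74.0, 51.4, 71.2 and 102 CPM with 0.40 ± 0.41. In each of the 7 genes LPS male had the highest level of the libraries. The fold change was above 0 for 7 of 7 genes, where it was above 0 for 50.6% of all genes tested, and 2 of 7 had both LPS libraries above both controls, as 11.9% of all genes had. The median over the 7 genes was 0.508, beside 0.00502 over all genes tested. Without LPS male the fold changes lay between 0.04 and 0.50.

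**Figure D3:**
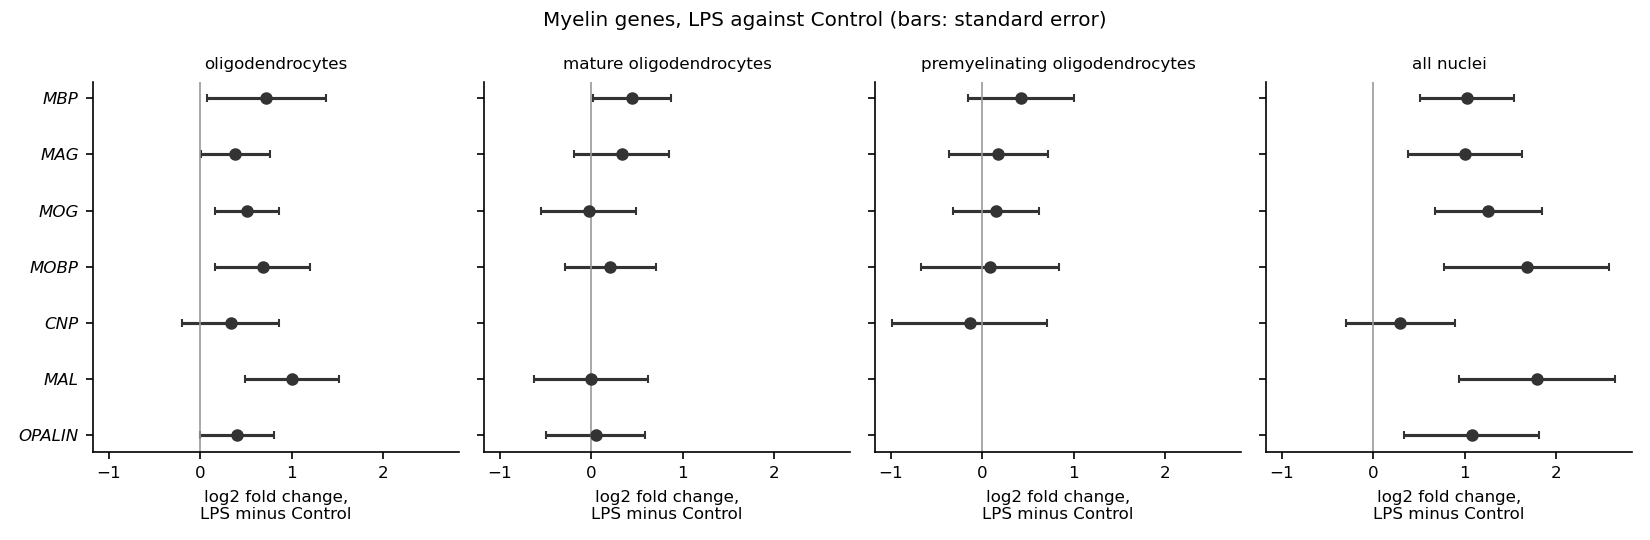
Log2 fold change of each myelin gene, LPS minus Control, with its standard error from edgeR (2 libraries a group), in the sum over oligodendrocytes, over mature and premyelinating oligodendrocytes and over all nuclei. Genes without a point failed the filter on low counts. All 7 points lie above 0 in oligodendrocytes and in all nuclei, and the points of MOG, MOBP, MAL and OPALIN in mature oligodendrocytes lie between -0.03 and 0.21.

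The stage make-up of the class also differed, in LPS male. Mature oligodendrocytes were 9.60% of the class in control female, 5.21% in control male, 9.09% in LPS female and 32.5% in LPS male, from 12, 5, 8 and 52 nuclei. LPS female lay within the range of the controls, though its MOG and MAL levels in the class were above both controls. The log2 difference of the share was 1.52 ± 0.58 (SE, n = 2 a group; edgeR adjusted p = 0.123 over the 4 stages and the unnamed cluster), and it was 0.24 without LPS male. In a sum over nuclei, more nuclei of a stage and more RNA of a gene per nucleus cannot be told apart. The 4 named stages were therefore also weighted by 1 common mix of nuclei in every library. The UMIs per nucleus of each stage stayed those of the library, so differences in depth between stages still entered these levels. The log2 ratio of the mean LPS level to the mean Control level of MBP went from 0.89 with the mix of each library to 0.28 with the common mix, and that of MAG from 0.52 to 0.19. For MOG it went from 0.58 to -0.21, for MOBP from 0.89 to -0.02, for OPALIN from 0.52 to -0.38 and for MAL from 1.03 to -0.40. CNP went from 0.60 to 0.52. With the common mix LPS male had the highest level for MBP and CNP only, and the lowest for MOG, MAL and OPALIN. Of these stages MAL was found in mature nuclei alone, so its common-mix level also depends on the share of UMIs that mature nuclei hold. Within mature nuclei MAL had 198.5 and 288.8 CPM in the controls, 245.1 in LPS female and 229.1 in LPS male. The value of -0.40 is thus not a lower MAL level within mature nuclei of LPS male than of both controls.

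**Figure D4:**
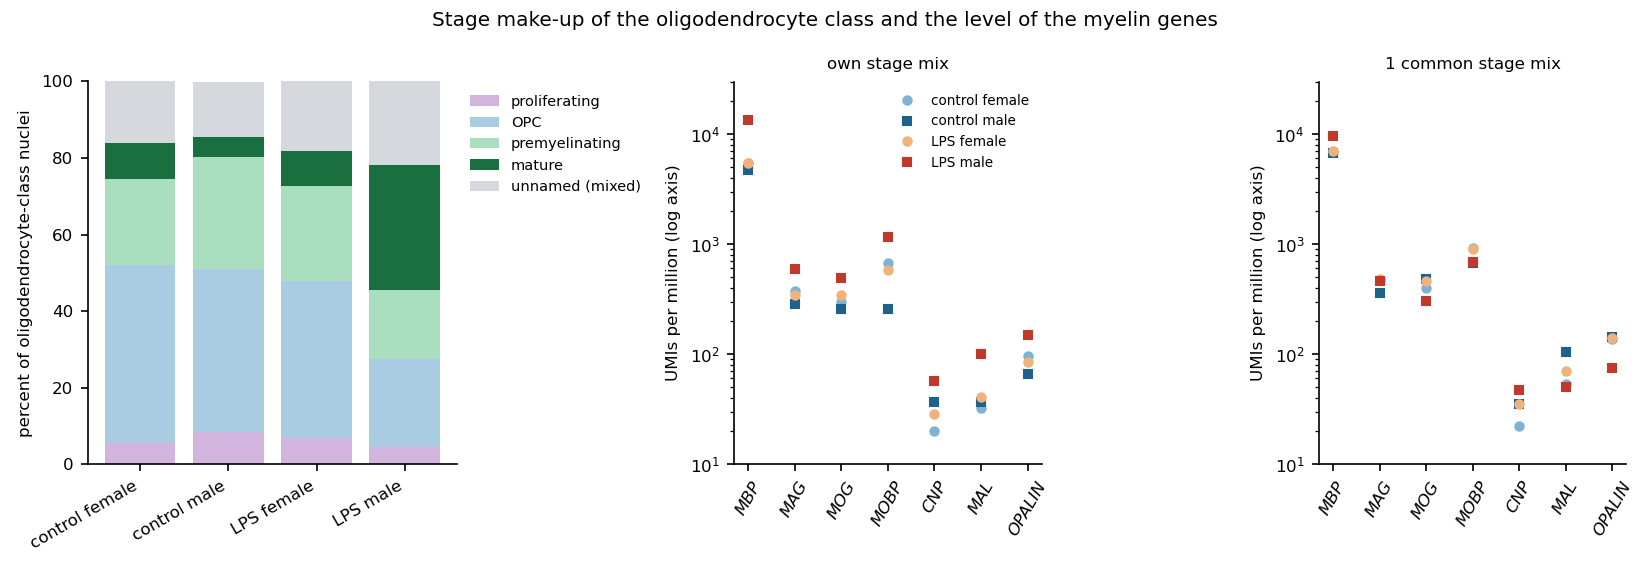
Left, stages as percent of the nuclei of the oligodendrocyte class in each library. Middle and right, the level of each myelin gene over the 4 named stages in CPM (log axis), with the stage mix of the library and with 1 common mix of nuclei, 1 point per library. LPS male had 32.5% mature nuclei against 5.21 to 9.60%, and its points lie above the others for all 7 genes in the middle and for MBP and CNP on the right.

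Within mature oligodendrocytes none of the 7 genes was called, and 1 of 1968 genes was, DCLK1 (0.0508%), with 52 at an unadjusted p of 0.05 and none called by DESeq2. MBP, 1 of the 6 genes tested, had both LPS libraries (16580 and 21650 CPM) above both controls (15360 and 12230 CPM), as had 14.3% of all genes, with a log2 fold change of 0.45 ± 0.43 (SE, n = 2 a group; edgeR adjusted p = 0.9997). MOBP, with overlapping groups, had a change of 0.21 ± 0.50 and MAG of 0.33 ± 0.52. The values of MOG, MAL and OPALIN, -0.03, -0.00 and 0.05, were small beside their errors of 0.52 to 0.62. CNP had too few UMIs for the filter. Of the 6 genes tested 4 were above 0, as were 48.8% of all genes. The controls rest on 12 and 5 mature nuclei.

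In premyelinating nuclei none of the 7 genes and none of 3017 genes were called by edgeR (0%), with 21 at an unadjusted p of 0.05 and none by DESeq2. Of the 5 genes tested, 4 were above 0, as were 50.9% of all genes. The log2 fold changes were 0.43 ± 0.58 for MBP, 0.18 ± 0.54 for MAG, 0.15 ± 0.47 for MOG, 0.08 ± 0.76 for MOBP and -0.14 ± 0.85 for CNP. The female and male pairs of MBP, MAG and MOBP went opposite ways. OPALIN and MAL had too few UMIs for the filter.

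In OPCs MBP was the only gene of the 7 that passed the filter, with a log2 fold change of -1.64 ± 0.59 (SE, n = 2 a group; edgeR adjusted p = 0.9998). None of 3121 genes was called (0%), with 28 at an unadjusted p of 0.05 and none by DESeq2. With the sex of the fetus as a block the adjusted p of MBP was 0.00602, and without control male, where the lone control is assumed to vary like the LPS libraries, it was 0.0358. The value rests on the 4 nuclei described above, and without them MBP had too few UMIs to be tested. In the OPC cluster of the finer clustering, which lacks the control female nucleus, MBP had 19.0 and 301 CPM in the controls and 74.7 and 257 CPM in the LPS libraries. The groups overlapped there, so the direction depends on the clustering.

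The groups were then compared outside the class. In granule nuclei none of 14746 genes was called by edgeR (0%), with 34 at an unadjusted p of 0.05 and none by DESeq2. MBP there had a log2 fold change of 0.18 ± 0.26, and of -0.49 with the free RNA subtracted. The latter rests on the estimated free share, which appeared too high for MAG in these nuclei. MOG and MBP, 2 of the 6 genes tested, had both LPS libraries above both controls, as had 7.2% of all genes. MOBP in granule nuclei was 0.696 and 0.751 CPM in the controls, 0.303 CPM in LPS female and 6.61 CPM in LPS male, and its log2 fold change was 2.23 ± 1.41. Empty droplets of LPS male likewise held 39.4 CPM of MOBP against 4.80 to 8.89 CPM in the others. In empty droplets none of 11081 genes was called (0%), with 17 at an unadjusted p of 0.05 and none by DESeq2, and MBP had a log2 fold change of 0.88 ± 0.61. LPS male was the highest library for MBP in empty droplets, in the low-UMI cluster and in oligodendrocytes alike.

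Over all nuclei of a library MBP was 187, 168, 199 and 519 CPM, and none of the 7 genes nor of 16135 genes was called (0%), with 37 at an unadjusted p of 0.05 and none by DESeq2. All 7 fold changes were above 0, from 0.30 for CNP to 1.79 for MAL, as were 51.3% of all genes tested. MBP, MOG and MAL, 3 of 7, had both LPS libraries above both controls, as had 7.11% of all genes. The log2 fold change was 1.03 ± 0.52 for MBP and 1.26 ± 0.58 for MOG (SE, n = 2 a group; edgeR adjusted p = 1). Oligodendrocytes were 2.05% of the nuclei and 3.62% of their UMIs in LPS male, against 1.11 to 1.35% and 1.55 to 1.87% in the other libraries, and the part of this share in the result was not tested. Without LPS male the fold changes lay between -0.23 and 0.67. Without the low-UMI cluster that of MBP was 0.98.

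Other genes of myelin were followed from lists, in the oligodendrocyte class. Of 25 other myelin protein genes 20 had a row under their symbol in the gene list used here and 16 were tested. Of these 12 had a fold change above 0 and 4 below, none was called, and the median was 0.358. The highest were ANLN, a cytoskeletal protein that scaffolds septins (1.50 ± 0.70), and PLLP, a raft proteolipid related to MAL (0.83 ± 0.41). ANLN had 37.6 and 45.0 CPM in the controls, 31.3 CPM in LPS female and 206 CPM in LPS male. The lowest were PMP22 (-0.51) and MARCKSL1 (-0.15). Of 26 myelin lipid genes 20 were tested, 15 above 0 and 5 below, none called, with a median of 0.316. DHCR7 and NSDHL, enzymes of cholesterol synthesis, had the highest values of the list at 1.22 ± 0.65 and 1.04 ± 0.54. DHCR7 had 9.40 and 12.9 CPM in the controls against 26.1 and 25.1 CPM. Both LPS libraries were above both controls in 6 of the 20 lipid genes tested, in 1 of the 16 other protein genes and in 1 of the 13 transcription factors described next, where 11.9% of all genes had them above. CERS2, a ceramide synthase, was among the lowest at -0.34. Of 22 transcription factors of the lineage 13 were tested, 5 above 0 and 8 below, none called, with a median of -0.07. HES5, a Notch target, had 1.48 ± 0.86 from 1 to 14 UMIs a library, ST18 0.38, OLIG2, which sets the lineage, -0.53 and YY1 -0.38. The lipid genes had a median of -0.10 in premyelinating nuclei, with 7 of 15 above 0, and of 0.371 in mature nuclei, with 9 of 14 above 0, beside 0.00785 and -0.0166 over all genes tested. In the class, 1 of the 20 lipid genes had both LPS libraries below both controls. In premyelinating nuclei 0 of 15 had them above and 4 below. In mature nuclei 3 of 14 had them above and 2 below, and 14.3% of all genes had them above. The share of all genes with both LPS libraries below was not counted in any set, nor the share above in premyelinating nuclei. The numbers below thus have no value over all genes beside them and are not read as a drop of lipid genes. No member of any list passed the test in the class.

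The genes whose levels were most like the mean of the 7 were sought over 49 sums of 14 classes and 4 libraries, as a description. ERMN, a cytoskeletal protein of mature oligodendrocytes, had the highest Pearson correlation of log2(CPM + 1), 0.922, followed by NEU4 with 0.899, GPR17 with 0.894, an unnamed gene with the identifier ENSMMUG00000047179 with 0.875 and FFAR1 with 0.872. ZNF488 (0.870), ENSMMUG00000047268 (0.869), ENSMMUG00000043409 (0.867), MYRF (0.865), the transcription factor that switches on myelin genes, and FA2H (0.853), which hydroxylates the fatty acids of myelin lipids, came next. The sums share libraries and depth. ERMN and GPR17 were also on the marker lists that named the stages. ERMN had 24.1 CPM in oligodendrocytes and 0.273 CPM in the other classes, and a gene so confined would score high here in any case. Within the 7 genes MOG was most like the mean of the other 6 (0.929) and CNP (0.799) and MBP (0.815) least.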

How the data were processed

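Nuclei of the cerebellum of 2 Control and 2 LPS fetuses were sequenced by the authors, 1 library per fetus. They deposited the UMI counts of each gene in each barcode, as whole numbers, without normalization or a filter on barcodes. Reads were mapped to Mmul_8.0.1 with introns included. Cell Ranger 4 is named in the submitters' processing notes and in the file headers, and Cell Ranger 5.0 in the protocol and the methods. SoupX, which the methods name for taking out ambient RNA, was not applied to these counts. Group, sex and age were taken from the labels.

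Barcodes with 500 genes or more, of which UMIs of the mitochondrial gene CYTB made up 5% or less, were integrated with Seurat 5.3.0 in R 4.3.3 (2000 variable features, 30 dimensions, resolution 0.5, 23 clusters), with the 7 genes left out. Other mitochondrial genes were not used in this filter. A cluster took the class or stage whose fixed markers had the highest mean log2 fold difference, and the name was withheld where its leading genes, its UMI number or the markers of another class went against it. The oligodendrocyte class was clustered again on 20 dimensions at resolutions 0.5 and 1.0. Doublets were called by Scrublet in scanpy 1.11.5 and left in, and their removal was an alternative. The automatic threshold called 0.0256% of LPS male, so a threshold of 0.191 taken from other libraries was used there (5.50%), and values of LPS male without doublets rest on it. Libraries shared 16 to 21 barcodes a pair. The remaining steps used Python 3.11.15, numpy 2.4.6, scipy 1.17.1, pandas 2.3.3 and matplotlib 3.10.9.

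UMIs were summed per library and class and compared in edgeR 4.0.16 (quasi-likelihood test) after filterByExpr and TMM normalization, with Benjamini-Hochberg adjustment over all genes tested, in 7 comparisons. Genes were called where the adjusted p was under 0.1 and the log2 fold change beyond 0.25 in either direction. Numbers of nuclei per stage were tested likewise, at an adjusted p of 0.05. DESeq2 1.42.0 was the other tool. With 2 fetuses a group, an exact permutation test of a single value cannot go below 0.333, two-sided, and none was used. Intervals are exact at 95% and, like limits of 3 counts, cover counting error only. The free share is the 0.25 quantile, over markers of other classes, of their share in the nuclei over their share in empty droplets. Empty droplets were barcodes with at most 100 UMIs. On simulated data for the oligodendrocyte sums, with 200 of 8080 genes changed, edgeR called 100% of the tested genes changed by 4 and 62.0% of those changed by 2 on the log2 scale. For the mature sums, on 1968 genes, it called 100 and 64.7%. The shares were 96.8 and 18.9% for granule nuclei on 14746 genes, and 82.4 and 13.3% for empty droplets on 11081 genes. Unchanged genes called by edgeR numbered 14, 12, 9 and 13 in the same order of sums. All genes of a set were simulated with 1 common dispersion, and no change was smaller than 2. The 7 genes had log2 fold changes of 0.33 to 1.00 in the oligodendrocyte class. How often changes of that size would be called was thus not simulated.

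Named were the 7 genes, of each list the genes called or otherwise the 2 highest and the 2 lowest log2 fold changes tested, and the 10 genes most like the mean of the 7. A gene that this rule names is not reported here. The 7 genes, the lists and the tests were chosen with earlier results of these data known. Alternatives that were run are described in the closing section. Sequences of the genes and their positions were not used here.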

Additional observations from a re-analysis of the deposited data

Results flagged for a closer look

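In premyelinating oligodendrocytes, LPS and Control differed in opposite directions in the female and the male pair for MBP, MAG and MOBP. The log2 ratio of LPS to Control for MBP was -0.28 in females and 0.92 in males. MAG had -0.75 in females and 0.74 in males, and MOBP -1.29 and 2.92. Each ratio sets 1 library against 1 other, and the difference between the pairs was not tested. MOBP in control male rests on 7 UMIs. In every library the MOBP UMIs of the stage lay in the third premyelinating cluster of the finer clustering, with 4 to 7 nuclei a library. That cluster also held 1215 of 1742, 408 of 751, 665 of 1094 and 1350 of 1854 MBP UMIs of the stage. These numbers are for control female, control male, LPS female and LPS male. In empty droplets the log2 ratio of MBP was -0.34 in females and 1.66 in males, which was not tested either.

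The unnamed cluster of low UMI number, which entered no comparison of a class, held MBP at 765.8 CPM in LPS male, against 155.6, 62.7 and 134 CPM in control female, control male and LPS female. MBP led the genes that set this cluster apart. It held 1914 barcodes of LPS male and 65 to 369 of the other libraries. Groups of 2 samples were too small for a search of single samples far from the rest.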

How the results depend on the processing

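None of the 7 genes was called by any alternative in oligodendrocytes, premyelinating or mature oligodendrocytes, granule nuclei, empty droplets or all nuclei. MBP in OPCs was called with sex as a block (-1.66) and without control male (-2.11). The block by sex stands in for a pairing, and the labels give no replicate numbers. Counts of genes called moved more than members did. In oligodendrocytes DESeq2 called 1 gene, the fit without a filter 9, the sex block 6 and the fit without doublets 1, against 0. In OPCs it was 1 without a filter, 10 with the sex block and 1 with free RNA subtracted. In premyelinating oligodendrocytes it was 3 without a filter and 1 each with the sex block, without doublets and with free RNA subtracted. In mature oligodendrocytes the 1 gene became 0 with DESeq2, without a filter, without doublets, with free RNA subtracted and with stages from the marker score. In empty droplets the sex block gave 2. Leaving out 1 library gave 10 to 58 genes in oligodendrocytes, 2 to 10 in OPCs, 2 to 8 in premyelinating and 0 to 12 in mature oligodendrocytes. The causes were not tested.

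The log2 difference of the mature share ran from 0.24 without LPS male to 2.07 without LPS female, where it passed the test (edgeR adjusted p = 0.00454). Where 1 library was left in a group, it is assumed to vary like the other group. With libraries and clusters of a stage summed, all 7 genes were highest in mature oligodendrocytes under each alternative run, but the third premyelinating cluster was above it for MBP, MAG and CNP. Some fold changes changed sign. With stages from the marker score, MAG in mature oligodendrocytes had -0.14, OPALIN -0.19 and MAL 0.51. MAL there had 0.14 without a filter, 0.075 without doublets and 0.0063 with free RNA subtracted. Without a filter MOG in mature oligodendrocytes had 0.11 and MOBP in premyelinating oligodendrocytes -0.0051. In granule nuclei MBP had -0.49 with free RNA subtracted and OPALIN -0.049 with the sex block. Leaving out 1 library, the fold changes that changed sign ranged in premyelinating oligodendrocytes from -0.16 to 0.80 for MBP, -0.67 to 0.67 for MAG, -0.17 to 0.37 for MOG, -0.76 to 2.53 for MOBP and -0.58 to 0.27 for CNP. In mature oligodendrocytes the ranges were -0.035 to 1.09 for MAG, -0.17 to 0.20 for MOG, -0.046 to 0.69 for MOBP, -0.12 to 0.19 for MAL and -0.21 to 0.38 for OPALIN. In granule nuclei they were -0.050 to 2.22 for MAG, -1.23 to 3.17 for MOBP, -0.25 to 0.44 for CNP and -0.91 to 0.68 for OPALIN. In empty droplets they were -0.030 to 1.44 for MBP, -0.15 to 1.39 for MAG, -0.34 to 1.32 for MOG and -0.047 to 2.50 for MOBP, and in all nuclei -0.23 to 0.68 for CNP. Added after seeing the data were the common stage mix and the fits without the mixed cluster, the low-UMI cluster and the highest OPC nuclei. CNP and the controls' mature nuclei were limited by few UMIs and nuclei.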
